A study of Caenorhabditis elegans with 17 samples.

Results

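The 10 genes described here encode nuclear subunits of complex I, the NADH dehydrogenase of the mitochondrial electron transport chain (ETC). They were taken by name from the deposited gene table (*gas-1*, *nuo-1*, *nuo-2*, *nuo-3*, *nuo-4*, *nuo-5*, *nuo-6*, *nduf-6*, *nduf-7* and *lpd-5*), and all 10 were found among its 21459 genes. The table came from RNA-seq of dissected *C. elegans* oocytes, with a small amount of gonadal sheath still attached. Wild-type mothers spent the time from the L4 stage to day 1 of adulthood either on NGM with 300 mM NaCl (8 libraries) or on control NGM (9 libraries). The control medium was not free of salt, since the study gives it a lower NaCl concentration as its normal laboratory condition. The labels number the replicates of each group 1 to 3 and add a letter to each library, and they do not say whether libraries with different letters came from different animals. In the supplement to the study each replicate is 3 oocytes of 1 animal, and each condition has 3 replicates. That count matches the replicate numbers 1 to 3 of each group, so the 8 and 9 libraries may come from only 3 animals a group. What the letters stand for is not stated there.

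The table holds 1 measured value for each gene, the mean normalized count over all libraries entered, as computed by the authors. Its other columns are the authors' own comparison of 300 mM NaCl with control and were not used. Which of the libraries entered that mean is not given in the sources used here. The mean is not split by library, so sequencing depth is unknown, no error can be attached to any level, and the 2 groups are not compared here. The values below describe how abundant each mRNA was over stressed and control oocytes combined. Where neighbouring genes in an order of levels are close, whether they differ beyond the spread between libraries was not tested.

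Complex I takes electrons from NADH and passes them through a flavin and a chain of iron-sulfur clusters to ubiquinone, and it pumps protons across the inner membrane as it does so. It has a matrix arm, where NADH is oxidised and ubiquinone is reduced, and a membrane arm, whose proton-pumping core is encoded by mitochondrial DNA. Around this conserved core lie accessory subunits, which are needed for assembly and stability. Oocytes load the embryo with both mitochondria and mRNA, so their transcripts for nuclear subunits are part of the maternal supply.

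All 10 mRNAs lay above the median protein-coding gene in the oocyte samples, though not all were highly abundant. To compare genes, each mean normalized count was divided by the length of all exons of the gene in kilobases (kb). On this scale the median of the 10 genes was 512 per kb, 28.9-fold above the median of 17713 protein-coding genes in the table (17.7 per kb), and each of the 10 lay above that median. A gene's percentile is the share of protein-coding genes with a lower level per kb. The median percentile of the 10 genes was 91.6, and 6 of them lay above the 90th percentile (471 per kb). The latter count depended on the scale, with 5 genes above that percentile per kb of coding sequence, 3 without division by length and 1 (*nuo-1*) among genes whose mean was 10 or more. Among genes whose mean was 10 or more, *gas-1* stood at percentile 64.2 and *nuo-3* at 51.4, near the middle. These scales were compared after seeing the data. Together the 10 genes took 0.151% of the summed mean normalized counts. Levels ran from 155 per kb for *nuo-3* to 1201 per kb for *nuo-1*, a ratio of 7.75, yet 7 of the 10 genes fell in the band from 400 to 600 per kb. Only *nuo-1* was above this band, and *gas-1* and *nuo-3* were below it.

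**Figure D1:**
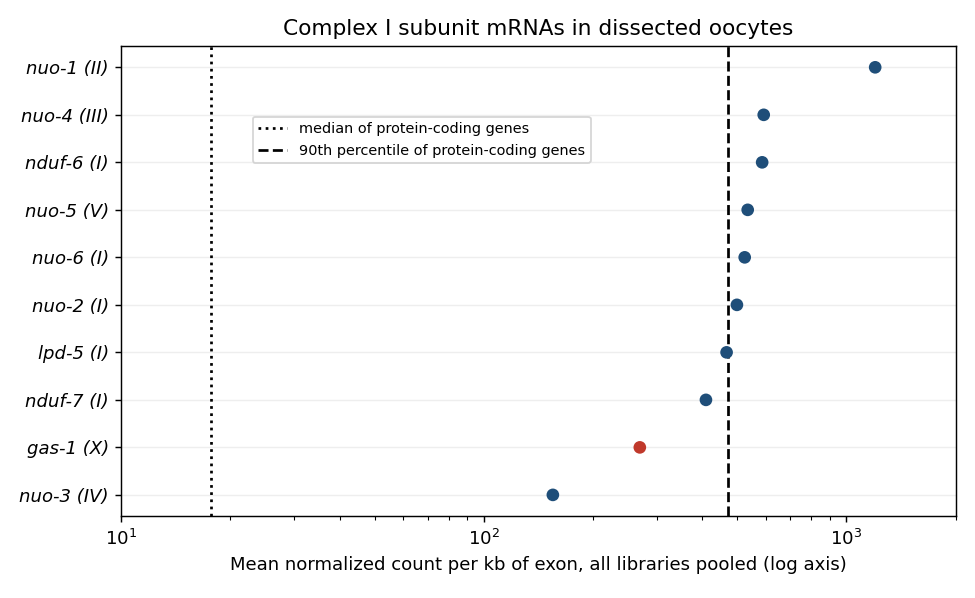
Mean normalized count per kb of exon (log axis) for each of the 10 complex I genes, with its chromosome in brackets and the X-linked gene in red. Points are the authors' mean over all libraries and have no error, and the vertical lines mark the median (17.7 per kb, dotted) and the 90th percentile (471 per kb, dashed) of protein-coding genes. All 10 points lie to the right of the dotted line, with *nuo-1* highest at 1201 per kb.

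The highest transcript belonged to the arm that oxidises NADH. *nuo-1* (WBGene00003831, II:11097837-11100146, forward strand, WBcel235) encodes the counterpart of human NDUFV1, the flavoprotein that binds NADH and FMN. Its mean normalized count was 1927, or 1201 per kb over 1605 exon bases, at percentile 99.2. This was 2.03-fold above the next member. *nduv-2* (listed as F53F4.10, chosen after its values were seen), the counterpart of the human flavoprotein partner NDUFV2, had 599 per kb. *nuo-5* (WBGene00021562, V:2698972-2706984, forward strand) encodes the counterpart of human NDUFS1, the large iron-sulfur protein that receives electrons from the flavoprotein. It had the second highest mean normalized count, 1306, but also the longest exons of the set (2444 bases), and came to 534 per kb (percentile 92.4).

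Of the accessory subunits of this arm, *nduf-6* (WBGene00009051, I:7090740-7091361, forward strand) encodes the counterpart of human NDUFS6, a zinc-binding protein. Its mean normalized count was 310 over only 529 exon bases, which gave 586 per kb (percentile 93.9). *lpd-5* (WBGene00003061, I:4372255-4373018, reverse strand) encodes the counterpart of human NDUFS4, whose loss in humans causes a mitochondrial disease of infancy. Its mean normalized count was 288, or 467 per kb (percentile 89.8), just under the 90th percentile line. The 4 members counted in this arm had a median of 560 per kb, with *lpd-5* the lowest of them. Other subunits of the arm, such as *nduv-2*, were not counted, so this median does not describe the whole arm.

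The 3 core subunits among the members in the part of the matrix arm that reduces ubiquinone had a median of 410 per kb. The accessory subunit *nuo-3*, also of the matrix arm, is described below and was not counted with them. The 3 core genes overlapped in level with the NADH-oxidising members, since *nuo-2* was above *lpd-5*. Both medians depend on which genes were counted, and the difference between them was not tested. *nuo-2* (WBGene00020417, I:6530131-6531963, reverse strand) encodes the counterpart of human NDUFS3, a core subunit without a redox centre, and had a mean normalized count of 459, or 499 per kb (percentile 91.2). *nduf-7* (WBGene00012376, I:9108173-9110918, reverse strand) encodes the counterpart of human NDUFS7, which holds the last iron-sulfur cluster before ubiquinone. Its mean normalized count was 454, or 410 per kb (percentile 87.2). Only 597 of its 1107 exon bases are coding in its longest product, so its level depended on how length was counted. Per kb of coding sequence it had 760 and ranked second of the 10, against eighth per kb of exon.

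*gas-1* (WBGene00001520, X:15586786-15590397, reverse strand) encodes a core subunit of the matrix arm. Its mean normalized count of 455 was almost that of *nuo-2* and *nduf-7*, but over 1688 exon bases this came to 269 per kb, at percentile 78.7. *gas-1* is the only X-linked gene of the 10. X-linked protein-coding genes had a median of 11.6 per kb over 2366 genes, against 19.1 per kb over 15335 autosomal genes. The autosomes differed widely among themselves, from 5.33 per kb on chromosome V, below X, to 80.6 per kb on chromosome III. Chromosomes I (69.5 per kb), II (16.2 per kb) and IV (17.6 per kb) also lay above X, so V alone was below it. Whether the chromosome had a part in the level of *gas-1* was not tested. Among X-linked genes alone *gas-1* stood at percentile 93.6, higher than its place among all protein-coding genes.

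The autosomal paralogue of *gas-1*, *nduf-2.2* on chromosome III, had a mean normalized count of 1070 and 718 per kb (percentile 96.2), 2.67-fold above *gas-1* per kb of exon and 2.39-fold above it per kb of coding sequence. Per kb of exon it ranked 2 of the 36 nuclear complex I subunits examined, but it ranked 10 per kb of coding sequence and 3 by mean normalized count. The 2 genes are similar in sequence, and how the authors' counting treated reads that match both is not given in the sources used here, so the ratio is uncertain. The same order was seen in 4 of 5 other X-linked OxPhos genes that were set beside an autosomal relative after their values were seen. The autosomal gene was 3.12-fold higher for *sdha-2* over *sdha-1* (the flavoprotein of complex II), 2.73-fold for *ucr-2.3* over *ucr-2.2* (a core protein of complex III), 2.29-fold for *asb-1* over *asb-2* and 2.04-fold for *asg-1* over *asg-2* (both of complex V). The exception was the X-linked *ucr-2.1*, at 930 per kb, above *ucr-2.3* at 614 per kb. *ucr-2.3* was the autosomal relative for both *ucr-2.1* and *ucr-2.2*, so the 5 comparisons are not separate. How reads that match both genes of a pair were counted is not known here either, so these ratios are uncertain too.

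The last 3 members are accessory subunits outside the NADH-oxidising arm. *nuo-4* (WBGene00019401, III:7156026-7158809, reverse strand) encodes the counterpart of human NDUFA10, a protein of the membrane arm with a nucleoside kinase fold. Its mean normalized count was 970, or 592 per kb, the second highest level of the 10. *nuo-6* (WBGene00012166, I:7068116-7069186, reverse strand) encodes the counterpart of human NDUFB4, in the far part of the membrane arm. It had a mean normalized count of 341 and 524 per kb (percentile 92.1). *nuo-6* and *nduf-6* lie 21553 bases apart on chromosome I, and their levels per kb were similar. Chromosome I holds 5 of the 10 genes and 15.6% of all protein-coding genes, and its median gene had 69.5 per kb, above the 17.7 per kb of all protein-coding genes. Chromosome III, with 1 of the 10 genes, had a higher median of 80.6 per kb.

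*nuo-3* (WBGene00013308, IV:14796419-14797544, reverse strand) encodes the counterpart of human NDUFA6, a small accessory subunit of the matrix arm. It had the lowest mean normalized count of the set, 167, and the lowest level, 155 per kb (percentile 71.0), but this value is ambiguous. In the annotation another protein-coding gene on the same strand, WBGene00303007, shares 783 of the 1078 exon bases of *nuo-3* (72.6%), which leaves 295 bases to *nuo-3* alone. That gene has no row among the genes of the table, and how reads in the shared exons were assigned is not given in the sources used here. In addition only 393 of the exon bases are coding. Per kb of coding sequence *nuo-3* had 425, at percentile 83.4, and *gas-1* became the lowest of the 10 at 314. The part of the overlap in the low value was not tested.

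**Figure D2:**
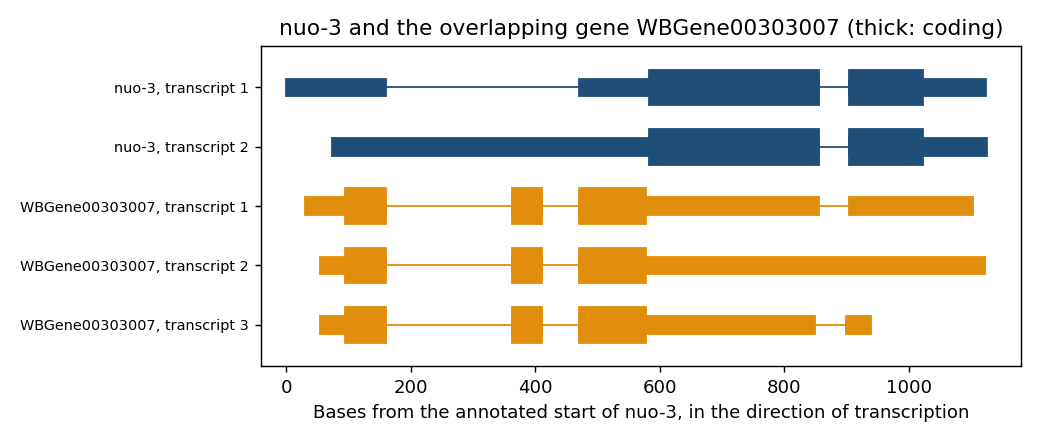
Annotated transcripts of *nuo-3* (blue) and of WBGene00303007 (orange) in bases from the start of *nuo-3*, drawn in the direction of transcription, with coding parts thick and other exon parts thin. The transcripts share 783 exon bases while their coding parts lie apart, that of WBGene00303007 before that of *nuo-3*.

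Apart from *nuo-3*, overlaps were small. Of the 10 genes, 6 share at least 1 exon base with another gene, and in the other 5 of these the shared stretch was between 6 bases (*nuo-1*, on the same strand) and 55 bases (*nduf-6*, on the opposite strand). The labels name a stranded library kit, but whether the counting used strand is not given. *nuo-2*, *nuo-4*, *nduf-7* and *lpd-5* overlap no exon of another gene, and these 4 spanned only 410 to 592 per kb, a ratio of 1.44. Across the 10 genes the mean normalized count went with exon length (Spearman's rho 0.70 over 10 genes), while the level per kb did not (rho 0.05). These are descriptions across genes of the same libraries.

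**Figure D3:**
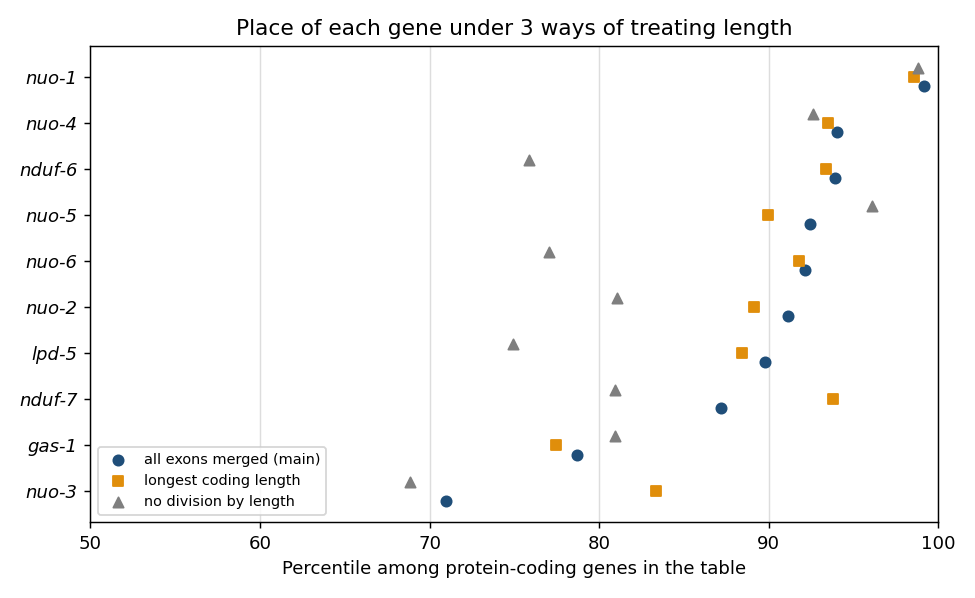
Percentile of each complex I gene among protein-coding genes when its mean normalized count was divided by all merged exons (circles), divided by the longest coding length (squares) or not divided by length (triangles). *nuo-1* stayed near percentile 99 in each case, while short genes such as *nduf-6* moved most when length was ignored (93.9 with exon length, 75.8 without).

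All 20 genes of a list of other nuclear complex I subunits were found in the table. Their median was 520 per kb, beside 512 per kb for the 10 genes, and they spanned a narrower range, from 221 to 718 per kb. The highest 3 were *nduf-2.2* (718 per kb), *ndub-5* (listed as C25H3.9, 681 per kb) and *ndua-13* (listed as C34B2.8, 660 per kb). The lowest 3 were *ndua-2* (listed as Y63D3A.7, 221 per kb), *ndua-12* (listed as Y94H6A.8, 394 per kb) and *ndua-8* (listed as Y54F10AM.5, 419 per kb). The annotation names 6 more subunits, which were added after seeing the data. With these, 36 nuclear subunits had a median of 501 per kb and a median percentile of 91.3, and all 36 lay above the median protein-coding gene. *nuo-1* was the highest and *nuo-3* the lowest of the 36, and *gas-1* ranked 33rd, with only *ndua-2*, *nduv-3* (191 per kb) and *nuo-3* below it. *nuaf-1* and *nuaf-3*, which encode assembly factors of the complex and are not part of the finished enzyme, had 280 and 198 per kb. *nuaf-1* was above *gas-1* and *nuo-3* alone among the 10 genes, and *nuaf-3* above *nuo-3* alone.

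Per kb of exon, the mitochondrially encoded subunits were each above every one of the 10 nuclear genes. All 7 were found (ND1 to ND6 and ND4L), with a median of 1625 per kb. ND6 was highest at 5804 per kb, followed by ND4L at 2855 per kb and ND1 at 1836 per kb. ND3 had 1625 per kb, ND5 1541 per kb, ND4 1356 per kb and ND2 1346 per kb. Even the lowest of them was 2.63-fold above the median of the 10 nuclear genes, and above *nuo-1* at 1201 per kb. Per kb of coding sequence the gap to *nuo-1* was small (1341 for *nuo-1*, 1402 for the lowest of the 7), and without division by length only 2 of the 7, ND6 and ND5, had a higher mean normalized count than *nuo-1*. Genes of mitochondrial DNA lie end to end on 1 strand and are transcribed together, so reads that cross a boundary can count for either neighbour.

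The median of the 10 complex I genes per kb of exon was below that of each other OxPhos complex. Over 32 nuclear subunits of complexes II to V the median was 720 per kb, so the median of the 10 genes was 0.71 of it, and only *nuo-1* of the 10 lay above it. For complex II, succinate dehydrogenase, 5 genes had a median of 582 per kb, between *sdha-1* (186) and *mev-1* (655), while their mean of 527 per kb was almost that of the 10 complex I genes (524 per kb). For complex III, 8 genes had a median of 698 per kb, between *ucr-2.2* (225) and *ucr-2.1* (930). For complex IV, 7 genes had a median of 746 per kb, between *cox-6C* (449) and *cox-6B* (1028). The highest median belonged to complex V, the ATP synthase, with 820 per kb over 12 genes, between *asg-2* (379) and *atp-1* (1722). Set over these medians in turn, the complex I median was 0.88 of that of succinate dehydrogenase, 0.73 and 0.69 of those of complexes III and IV and 0.62 of that of the ATP synthase. These ratios depended on the scale. Without division by length, the middle genes of complexes IV and II, *cox-5B* and *mev-1*, had mean normalized counts of 456 and 476. *gas-1* and *nduf-7*, ranked 5 and 6 of the 10 members by count, had 455 and 454, so on that scale the gap to complexes IV and II was small. The 10 genes and the other complexes overlapped in level, and with 1 pooled value a gene the difference in medians was not tested.

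**Figure D4:**
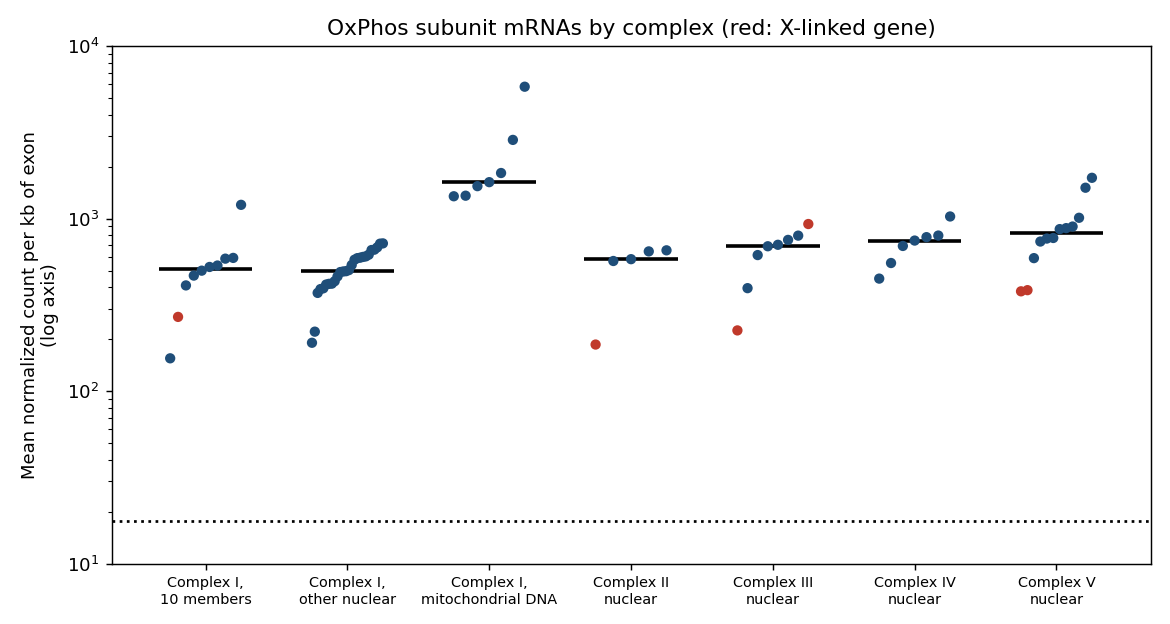
Level per kb of exon (log axis) of each OxPhos subunit gene, grouped by complex, with the complex I genes split into the 10 members, other nuclear subunits and subunits of mitochondrial DNA. Each point is 1 gene, X-linked genes are red, black bars are group medians and the dotted line is the median protein-coding gene. The bar of the 10 members is at 512 per kb, against 582 to 820 per kb for complexes II to V and 1625 per kb for the mitochondrially encoded subunits.

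The labelled cell type was checked against markers. The 10 oocyte markers lay between 691 per kb (*zif-1*) and 2054 per kb (*cpg-2*), all above percentile 95. Markers of the gonadal sheath spread widely, from 15.2 per kb (*tnc-2*) to 1117 per kb (*inx-8*). Between them lay *ceh-18* (29.1 per kb), *lim-7* (129), *mup-2* (386) and *inx-9* (497). The 8 intestine markers reached at most 74.4 per kb (*vit-2*), with *elt-2* lowest at 11.7 per kb. Of 10 sperm markers 9 were found, from 1.75 per kb (*spe-9*) to 49.8 per kb (*msp-142*). Above the median protein-coding gene lay 6 of the intestine markers and 5 of the sperm markers, so that median is a low bar. Complex I is made in every tissue, so the sheath left on the oocytes can add to each value above, and its share was not tested.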

How the data were processed

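RNA from dissected oocytes was sequenced by the authors (17 libraries, 8 at 300 mM NaCl and 9 control). The authors aligned reads to WBcel235, quantified them with STARsolo, dropped genes whose reads summed to under 10 and ran DESeq2. The submitters' processing notes also name kallisto. Versions are not given in the sources used here. The signal used here is the deposited mean normalized count, for which the authors scaled each library for depth and averaged the libraries. The other deposited columns hold the authors' log2 fold change, its standard error, a test statistic and its p-values (raw and adjusted), and none of these was used. A planned count test between groups could therefore not be run, and the depth per library is unknown.

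Positions and lengths came from Ensembl release 115 of WBcel235, which held 21399 of the 21459 identifiers. Levels are the mean divided by merged exon length in kb. Percentiles were tested on simulated ranks. The mitochondrial genes were named from RefSeq genes of the same assembly that share at least 80% of both spans. Alternatives were the longest coding length, no length, other reference genes and other members. The genes named were all 10 members, the 3 highest and 3 lowest other nuclear complex I subunits of the list, every mitochondrially encoded subunit, the assembly factors *nuaf-1* and *nuaf-3*, *nduf-2.2*, and the highest and lowest gene of each other complex and marker list. Any other gene was picked with its values in view. The members and lists were chosen with earlier results of these data known. Scripts ran in Python 3.11.15 with pandas 2.3.3 and numpy 2.4.6, and figures were drawn with matplotlib 3.10.9.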

Additional observations from a re-analysis of the deposited data

How the results depend on the processing

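No paired analysis was possible because the deposited table has 1 pooled mean for each gene without any column for a replicate. Alternatives built on library counts (other size factors, no low-count filter, summed letters, the replicate block, leave-one-out fits) were not run either. All 10 genes stayed above the median gene under each of the 4 alternatives tried for that count. The median percentile of 91.6 was 90.9 with the coding length, 80.9 with no division by length, 86.0 among genes with a mean of at least 10, 92.3 among all genes with a length, 90.8 among autosomal genes, 92.1 without the X-linked *gas-1* and 90.5 without the 6 genes that overlap another. Among alternatives chosen after seeing the data it was 92.1 without *nuo-3*. The ratio of the highest to the lowest level, 7.75, was 4.27 with the coding length, 11.5 with no division by length and 1.44 without overlapping genes, and 4.46 without *nuo-3* (chosen after seeing the data). The complex I median over that of the other OxPhos complexes, 0.71, was 0.64 with the coding length, 0.80 with no division by length, 0.72 with means, 0.70 without X-linked genes, 0.67 without overlapping genes and 0.70 for all 36 subunits (chosen after seeing the data), so it stayed below 1 in each. That ratio pools complexes II to V, and the alternatives were not run for single complexes. The lowest percentile of any of the 10 genes under any setting was 51.4, that of *nuo-3* against genes whose mean was 10 or more. For none of these shifts was the cause tested.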
